A study of Mus musculus with 30 samples.

Results

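Wild-type heart was set against wild-type skeletal muscle to describe how the striated muscles of the mouse differ where the Clpp gene is intact. The arrays were taken by their labels, 3 heart wild type and 3 muscle wild type, and make up 6 of the 30 arrays of the series. The series crossed 2 genotypes, ClpP knock-out mice and wild-type littermates, with brain, testis, liver, skeletal muscle and heart, all on the C57BL/6 background and with 3 arrays for each combination. ClpP cuts proteins inside mitochondria, as the peptidase part of the matrix protease ClpXP. Total RNA was labelled by a kit that primes at the 3' end of transcripts and hybridised to Affymetrix expression arrays. The mice compared here carried no deletion and no transgene that the labels name, and no treatment is given. The labels state neither age nor sex, name the sample only as muscle with no particular muscle, and do not say that replicates came from separate animals, so p-values measure only the spread between these samples, which may be technical. The 6 arrays of the same tissues from knock-out mice served as a second measurement of the tissue difference. Values are log2 expression, on which 1 unit is a 2-fold difference, and every difference is heart minus muscle.

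Heart and skeletal muscle contract with the same sliding-filament machine, but many of its proteins come from separate genes in each tissue. Skeletal fibres further divide into fast types and a slow, oxidative type, and the slow type shares several of its sarcomere genes with the ventricle of the heart. The heart beats without rest, is fed mostly by fatty acids and other fuels burnt in its mitochondria, and couples its cells electrically at intercalated discs, whereas each skeletal fibre is driven by a motor nerve and can draw on its glycogen for short bursts. The transcription factors differ too, with GATA, NK and T-box factors known for the heart and the MyoD family known for skeletal muscle.

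The stretches of DNA just before the start sites of 6 genes that separated the tissues are given here, because heart and muscle genes of this kind have been studied through short motifs near their starts. The windows hold the 250 bases before the RefSeq start on the GRCm38.p6 assembly, read 5' to 3' on the gene's strand. Nppa (chr4:148000472-148000721, plus strand), Nppb (chr4:147985650-147985899, plus strand) and Mybpc3 (chr2:91117894-91118143, plus strand) were higher in heart. Myh4 (chr11:67237562-67237811, plus strand), Myh1 (chr11:67199852-67200101, plus strand) and Acta1 (chr8:123894776-123895025, minus strand) were higher in skeletal muscle. Capitals mark every match to 6 motifs, and these genes were picked with their matches in view.
Nppa: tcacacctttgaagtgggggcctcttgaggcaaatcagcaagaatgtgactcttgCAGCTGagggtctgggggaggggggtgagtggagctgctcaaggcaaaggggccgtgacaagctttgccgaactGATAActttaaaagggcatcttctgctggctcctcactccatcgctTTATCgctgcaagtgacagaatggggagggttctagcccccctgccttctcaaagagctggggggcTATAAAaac
Nppb: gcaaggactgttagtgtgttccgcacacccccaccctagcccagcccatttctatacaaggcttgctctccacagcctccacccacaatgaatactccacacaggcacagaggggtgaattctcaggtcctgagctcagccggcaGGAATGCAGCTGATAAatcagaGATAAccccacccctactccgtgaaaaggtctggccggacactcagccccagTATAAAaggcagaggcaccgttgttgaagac
Mybpc3: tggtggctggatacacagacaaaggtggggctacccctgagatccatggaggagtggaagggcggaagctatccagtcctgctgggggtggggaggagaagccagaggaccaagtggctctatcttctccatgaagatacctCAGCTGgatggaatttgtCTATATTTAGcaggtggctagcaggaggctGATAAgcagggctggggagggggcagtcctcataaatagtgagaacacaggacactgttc
Myh4: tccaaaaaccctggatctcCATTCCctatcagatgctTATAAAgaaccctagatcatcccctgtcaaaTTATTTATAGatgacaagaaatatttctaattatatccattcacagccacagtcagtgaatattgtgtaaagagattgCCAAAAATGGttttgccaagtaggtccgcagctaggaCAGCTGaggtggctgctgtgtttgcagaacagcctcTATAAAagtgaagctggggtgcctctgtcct
Myh1: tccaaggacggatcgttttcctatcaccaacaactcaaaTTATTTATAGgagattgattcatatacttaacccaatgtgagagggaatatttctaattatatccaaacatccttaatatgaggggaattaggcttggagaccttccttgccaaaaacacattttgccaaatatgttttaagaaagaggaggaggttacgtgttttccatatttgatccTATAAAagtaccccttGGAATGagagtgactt
Acta1: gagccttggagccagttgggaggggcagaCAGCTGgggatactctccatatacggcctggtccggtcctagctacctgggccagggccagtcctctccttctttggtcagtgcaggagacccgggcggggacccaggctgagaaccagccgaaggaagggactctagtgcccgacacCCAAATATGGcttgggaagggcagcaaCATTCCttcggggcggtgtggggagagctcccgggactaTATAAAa

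The motifs were GATAA (the core recognised by GATA factors), CAGCTG (an E-box of the kind MyoD-family factors bind), CATTCC (recognised by TEAD factors), the MEF2 site, the CArG box (recognised by serum response factor) and TATAAA. Both strands were searched, except for TATAAA, which was searched on the gene's strand. GATAA or its reverse stood in all 3 windows of the heart genes shown and in none of the 3 windows of the muscle genes. In Nppb a CAGCTG, 99 to 94 bases before the start, overlapped a GATAA at 94 to 90 by a single base, and a second GATAA lay at 83 to 79. Mybpc3 had a MEF2 site 90 to 81 bases before its start, Myh4 at 182 to 173 and Myh1 at 211 to 202, and Acta1 had a CArG box at 73 to 64. Such matches were common in general, and the shares over all genes give the scale. GATAA was found in 16.5% of the 1524 windows of genes higher in heart by at least 1, in 15.1% of the 1156 windows of genes higher in muscle by at least 1 and in 17.5% of the 17065 windows of all 13605 genes with an entry. CAGCTG was found in 15.9%, 15.2% and 13.0% of the same sets, CATTCC in 13.4%, 10.9% and 11.5%, and TATAAA in 4.86%, 4.93% and 5.75%. The MEF2 site was found in 1.57% of the windows of genes higher in heart, in 3.11% of those higher in muscle and in 1.92% of all windows, and the CArG box in 1.64%, 1.56% and 1.29%. A match is a run of letters and not a shown binding site, and no test was made on these shares.

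All 6 arrays had medians between 3.25 and 3.28 and correlated with the other arrays of their group at 0.987 or more. Heart arrays correlated with muscle arrays of either genotype, and muscle arrays with heart arrays, at 0.9225 or less. Precision throughout is limited by how few arrays there are. Clpp itself read 9.21, 9.13 and 9.20 in heart and 8.25, 8.57 and 8.61 in muscle, a difference of 0.71 ± 0.12 (SE, n = 3 per tissue, adjusted p = 0.0027), while all 6 knock-out arrays lay between 3.41 and 3.99. The control probe sets for actin differed between their 3' and 5' ends by 1.16 to 1.35 in heart and by -0.02 to 0.37 in muscle, whereas those for Gapdh differed by 0.25 to 0.33 in heart and by 0.23 to 0.29 in muscle. The part of this in the results was not tested. The tissue labels held against defining markers. Of 7 markers of heart muscle cells 6 were higher in heart, where their summed level lay between 14.68 and 14.73, against 5.963 to 6.108 in muscle. All 8 markers of skeletal fibres were higher in muscle, with a summed level of 6.301 to 6.464 in heart and 15.66 to 15.75 in muscle. Muscle replicate 1 stood apart by transcripts of sperm. Of 20 sperm and spermatid genes, 14 read above 4 on that array and 0 on any of the other 5, among them the protamine Prm2 at 8.36 and the transition protein Tnp1 at 7.18. Results that could rest on it are given with and without it, and no sarcomere gene discussed here is on that list.

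Of 17097 genes, 6063 (35.5%) differed between the tissues at an adjusted p below 0.05 in limma, and 56.2% of them were higher in heart. By direction, 3408 genes (19.9% of all tested) were higher in heart and 2655 (15.5%) were higher in muscle. A second rule, which also asked for a difference of at least 1, called 1431 genes higher in heart (8.37%) and 1075 higher in muscle (6.29%). Among the 6140 genes that averaged 6 or more in either tissue, 33.5% were higher in heart and 30.9% in muscle. The median difference over all genes was 0.03. Centring each array on its median moved that median to -0.10 and the share of called genes that were higher in heart to 42.7%, so the balance between directions depends on the scaling. Without muscle replicate 1, 5564 genes were called.

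**Figure D1:**
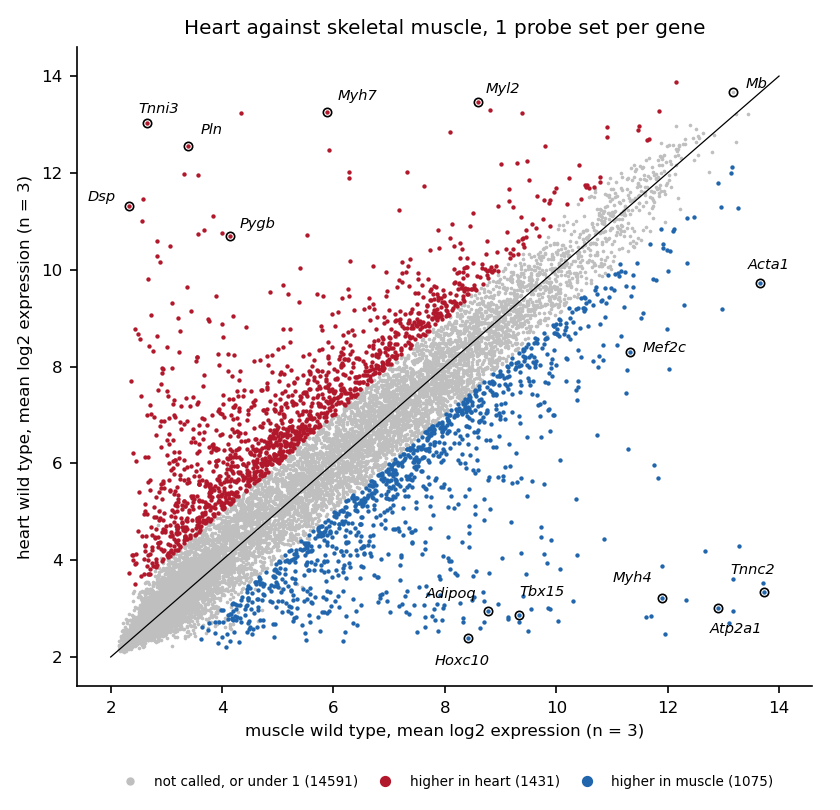
Mean log2 expression in wild-type heart (vertical axis) against wild-type skeletal muscle (horizontal axis), 3 arrays each, with 1 point per gene and the line of equal values. Red points are the 1431 genes higher in heart and blue points the 1075 genes higher in muscle by at least 1 at an adjusted p below 0.05, and the circled genes are described in the text.

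The contractile genes gave the largest differences in both directions. The 5 largest in favour of heart were Tnni3 and Tnnt2 (cardiac troponins), Pln (phospholamban, which restrains the calcium pump), Dsp (desmoplakin of the intercalated disc) and Ryr2 (the cardiac calcium release channel), and the 5 largest in favour of muscle were Tnnc2, Tnnt3 and Tnni2 (fast troponins), Actn3 (alpha-actinin-3 of fast fibres) and Atp2a1 (the fast calcium pump). Tnni3, the inhibitory troponin of the heart, read 13.04, 13.02 and 13.00 in heart and 2.51, 2.69 and 2.75 in muscle. Its difference was at least 10.37 ± 0.10 (adjusted p = 1.3e-09), where "at least" is written for every gene whose lower tissue mean is under 4, near the floor of the arrays. Tnnc2, the calcium-binding troponin of fast fibres, read 3.76, 3.22 and 3.03 in heart and 13.75, 13.68 and 13.75 in muscle, so the arrays of the tissues were far apart on opposite sides. The difference for Tnnc2 was -10.39 ± 0.18 or more in size (adjusted p = 1.9e-08). Across all genes, the 3 heart arrays lay wholly above the 3 muscle arrays for 26.8% and wholly below for 21.1%. Naming a gene among the 15 largest differences required separate arrays, so separation is not a further result for those genes.

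For 15 roles in contraction, calcium handling and lactate metabolism both the heart form and the skeletal form were measured, as separate genes. The heart form was higher in heart in 14 of the 15 pairs, the skeletal form was higher in muscle in 15 of 15, and both held in 14. The pair that did not split was junctophilin, which ties the surface membrane to the calcium store. Jph2, its cardiac form, read 9.61, 9.76 and 9.73 in heart and 9.58, 9.52 and 9.83 in muscle, overlapping ranges with a difference of 0.05 ± 0.12 (adjusted p = 0.78). A second Jph2 probe set differed by -0.87 (adjusted p = 0.0103 in limma), so the probe sets of this gene disagree. Jph1, the skeletal form, read 5.23, 4.61 and 4.63 in heart and 8.74, 8.69 and 8.67 in muscle (-3.87 ± 0.17). Only 3 of the 15 skeletal forms had a heart mean of at least 6 (Acta1, Myl1 and Ldha), whereas 9 of the 15 heart forms had a muscle mean of at least 6. Each probe set has its own scale, so these counts are only a rough guide to presence in the other tissue. The heart forms also include genes that slow fibres share, such as Myl2, Actc1 and Atp2a2.

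**Figure D2:**
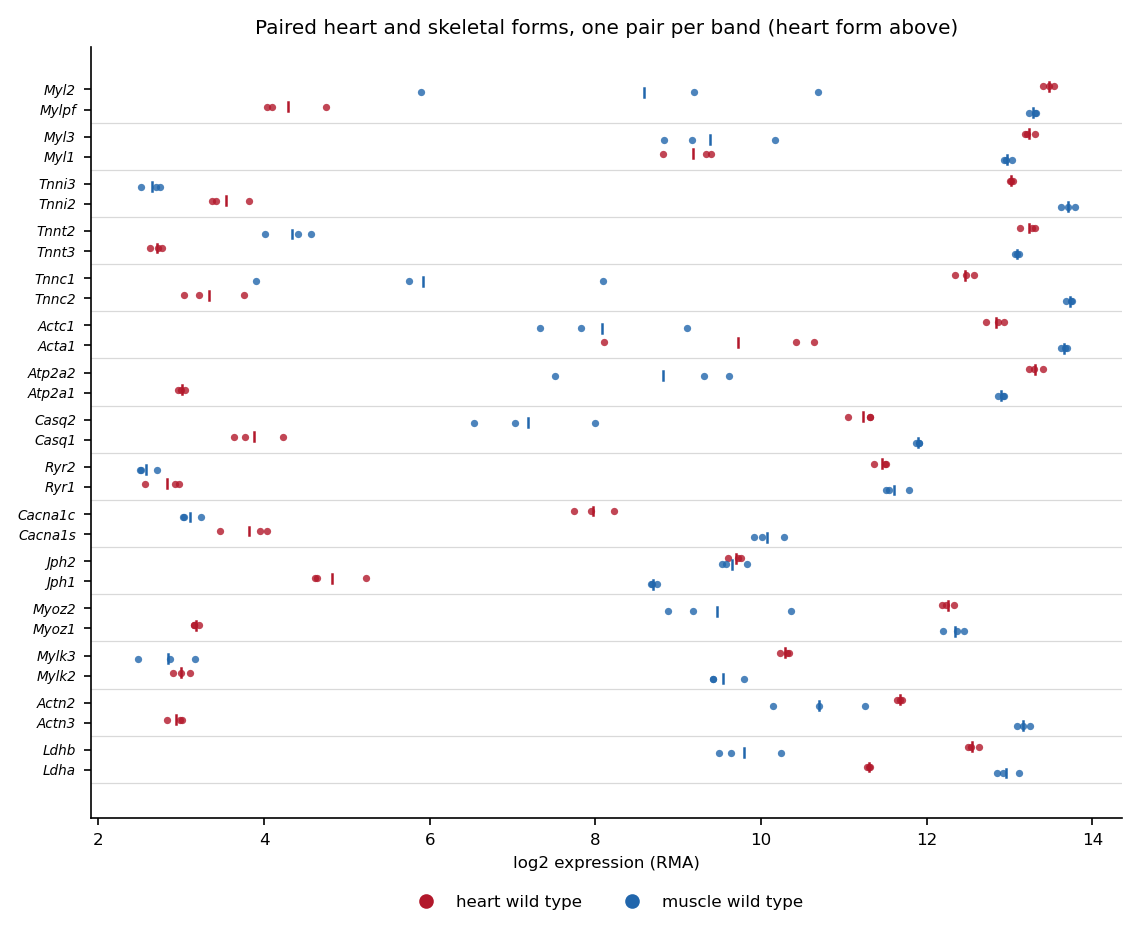
Log2 expression of 15 paired forms on each wild-type array (points) with the group mean (ticks), heart in red and skeletal muscle in blue, the heart form above the skeletal form in each band. Heart forms such as Myl2, Actc1 and Atp2a2 have spread muscle points at middle levels, while most skeletal forms sit near the floor in heart. Positions of different genes along the axis are not comparable, since each probe set has its own scale.

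Most sarcomere genes known for the heart alone were far higher in heart. Of 7 measured, 5 were higher in heart and 2 were not called, with a median difference of 7.75. Tnnt2, the tropomyosin-binding troponin, read 13.31, 13.27 and 13.13 in heart and 4.57, 4.01 and 4.41 in muscle (8.91 ± 0.15, adjusted p = 1.9e-08). Mybpc3, the cardiac myosin-binding protein C whose promoter window holds both a GATAA and a MEF2 site, read 11.87, 12.10 and 11.96 in heart and 3.46, 3.09 and 3.42 in muscle (at least 8.65 ± 0.13). Every heart array of both genes was above every muscle array, as the rule that named them among the largest differences required. Nebl, which encodes nebulette of the cardiac Z-disc, differed by at least 7.75 ± 0.12, and Mylk3, the cardiac myosin light chain kinase, by at least 7.46 ± 0.17. The genes not called were the light chains of the atrium, Myl7 and Myl4, which are taken up below with the arrays. Without heart replicate 1, 1 of the 7 was called higher in muscle.

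Fast fibre sarcomere genes mirrored this in skeletal muscle, with 19 of 21 higher in muscle, 0 higher in heart and a median of -8.69. Myh4, the myosin heavy chain of the fastest fibres, read 3.22, 3.25 and 3.16 in heart and 11.99, 11.80 and 11.92 in muscle, a difference of at least 8.69 ± 0.10 in muscle's favour (adjusted p = 2.4e-09). Myh1, another fast heavy chain, read 2.46, 2.54 and 2.40 in heart and 11.84, 12.15 and 11.86 in muscle. Myh2, the heavy chain of fast oxidative fibres, read 2.65, 2.87 and 3.0 in heart and 12.19, 11.70 and 11.21 in muscle. All 3 heavy chain genes were near the floor on every heart array. The other fast genes of this size included Mylpf, the fast regulatory light chain (-9.0 ± 0.19), Myoz1, a fast Z-disc protein (at least 9.16 ± 0.11 higher in muscle), and Pvalb, the calcium buffer parvalbumin (at least 9.57 ± 0.19 higher in muscle). Near-identical stretches among myosin heavy chain genes could share probes, so the separate values of Myh1, Myh2 and Myh4 are uncertain to that extent.

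A second tier of skeletal genes was high in muscle but also clearly present in heart. Acta1, skeletal alpha-actin, read 8.10, 10.42 and 10.64 in heart and 13.69, 13.67 and 13.62 in muscle, a difference of -3.94 ± 0.59 (adjusted p = 0.0013). Heart replicate 1 was more than 2 units below the other heart arrays for this gene, and still all heart arrays lay below all muscle arrays. Myot, the Z-disc protein myotilin, read 8.83, 9.56 and 9.43 in heart and 12.27, 12.40 and 12.19 in muscle (-3.02 ± 0.19), and Tmod4, a skeletal tropomodulin, differed by -4.08 ± 0.13. Lmod3, a leiomodin that nucleates thin filaments, was the exception on the list, at 9.11, 9.45 and 9.39 in heart and 8.91, 9.62 and 9.39 in muscle, with overlapping arrays and a difference of 0.02 ± 0.19. Actn2, the alpha-actinin shared by both tissues, was 0.97 ± 0.25 higher in heart (adjusted p = 0.017), whereas Actn3 was at least 10.23 ± 0.10 higher in muscle. Actn2 was not called with a trended and robust prior (adjusted p = 0.0557) or without heart replicate 2 (0.0575) or 3 (0.0539).

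Genes that the heart shares with slow fibres were all higher in heart, 10 of 10 with a median of 4.62, but here the skeletal muscle arrays disagreed among themselves. Myh7, the slow and ventricular myosin heavy chain, read 13.29, 13.28 and 13.20 in heart and 5.79, 4.08 and 7.81 in muscle, a spread of more than 3 units between muscle arrays against less than 0.1 between heart arrays. Its difference was 7.36 ± 0.78 (adjusted p = 0.00022) on a probe set that can match related transcripts. A second Myh7 probe set, without that mark and with means above 4 in both tissues, differed by 3.695 (adjusted p = 0.0222 in limma). The direction was the same, but the size depends on the probe set. Myl2, the ventricular and slow regulatory light chain, read 13.48, 13.40 and 13.54 in heart and 10.69, 5.89 and 9.19 in muscle (4.88 ± 1.02, adjusted p = 0.0069). Tnnc1, the calcium-binding troponin of heart and slow fibres, read 12.34, 12.57 and 12.47 in heart and 5.74, 3.91 and 8.10 in muscle (6.55 ± 0.88). Muscle replicate 2 was the lowest for these 3 genes and for 5 of the 10 on the list, so no single array was lowest throughout. Pln differed most and most evenly, at 12.56, 12.59 and 12.502 in heart and 4.12, 3.14 and 2.92 in muscle (at least 9.16 ± 0.28).

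Genes listed for slow skeletal fibres went the other way in part. Of 6 measured, 4 were higher in muscle, 1 higher in heart and 1 not called. Tnni1, the slow inhibitory troponin, read 2.99, 2.82 and 2.96 in heart and 5.29, 3.42 and 6.53 in muscle, at least 2.15 ± 0.66 higher in muscle. This was close to the threshold (adjusted p = 0.036) and was not called when muscle replicate 1, muscle replicate 3 or any of the heart arrays was left out (adjusted p between 0.0579 and 0.1). Tnnt1, the slow tropomyosin-binding troponin, read 6.27, 6.35 and 6.71 in heart and 7.26, 4.51 and 8.03 in muscle, where the muscle arrays lay on both sides of the heart arrays (-0.15 ± 0.78, adjusted p = 0.91). Mybpc1, the slow myosin-binding protein C, was at least 5.97 ± 0.43 higher in muscle, and Ankrd2, a stretch-responsive titin-binding protein, at least 6.31 ± 0.34. Tpm3, slow tropomyosin, was called higher in heart by 0.88 ± 0.16 on its brightest probe set, but its other probe sets differed by 0.04 (adjusted p = 0.892), -3.64 (adjusted p = 0.00239) and -2.02 (adjusted p = 0.0851), and the mean of all its probe sets was -1.18 (adjusted p = 0.045), so the direction depends on the probe set.

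The slow genes mostly read higher in skeletal muscle of knock-out mice, a contrast within muscle that was not tested on its own. Muscle of knock-out mice gave 10.65, 10.27 and 10.32 for Myh7, all above the 5.79, 4.08 and 7.81 of wild-type muscle, while heart read 13.25, 13.14 and 13.19 in knock-out mice and 13.29, 13.28 and 13.20 in wild-type mice. For Tnni1 muscle read 10.18, 9.18 and 9.97 in knock-out mice, against 5.29, 3.42 and 6.53 in wild-type mice. For 7 of the 10 genes shared by heart and slow fibres, and for 4 of the 6 slow skeletal genes, all 3 knock-out muscle arrays were above all 3 wild-type ones, and the difference heart minus muscle was smaller or more negative in knock-out mice for 10 of 10 and 6 of 6. Tested as a change of the tissue difference, Myl3, the ventricular and slow essential light chain, passed (-2.0 ± 0.37, adjusted p = 0.0496). The others did not at this spread, among them Myh7 (-4.58, adjusted p = 0.0627), Tnnc1 (-4.75, adjusted p = 0.0889) and Myl2 (-3.22, adjusted p = 0.303). The labels do not name the muscle, so a different muscle or a different share of slow fibres in the samples and a change in each fibre cannot be told apart.

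**Figure D3:**
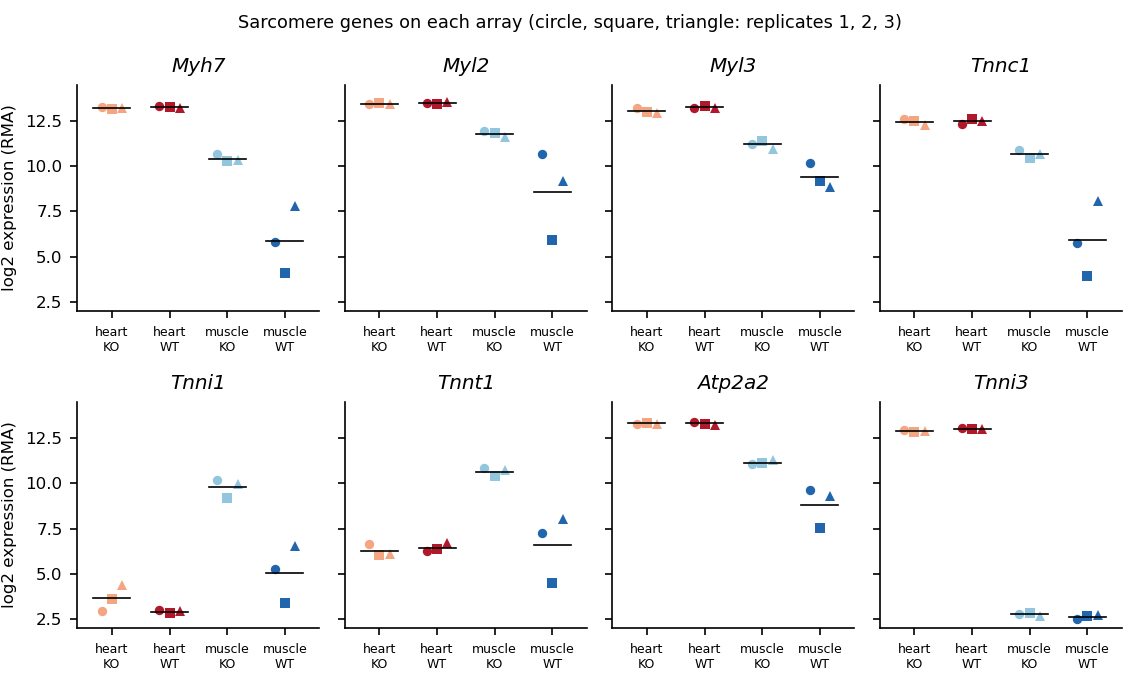
Log2 expression of 8 sarcomere genes on each array, in heart of knock-out (KO) and wild-type (WT) mice and in skeletal muscle of both, with bars at the mean of 3 arrays. Wild-type muscle points are spread widely for Myh7, Myl2, Tnnc1, Tnni1 and Tnnt1 and lie below the knock-out muscle points, whereas Tnni3, a gene of heart alone, is flat in muscle.

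Excitation and calcium release were split along the same line. Of 14 genes for cardiac channels and their partners 11 were higher in heart, 0 in muscle and 3 were not called, and of 14 genes of skeletal excitation 13 were higher in muscle and 1, Hrc, in heart. Ryr2 read 11.51, 11.37 and 11.49 in heart and 2.50, 2.52 and 2.71 in muscle (at least 8.88 ± 0.11, adjusted p = 2.6e-09). Ryr1, the skeletal calcium release channel, read 2.56, 2.93 and 2.98 in heart and 11.79, 11.54 and 11.50 in muscle (at least 8.79 ± 0.14 higher in muscle). Each release channel was near the floor on all arrays of the other tissue. Their partners in the surface membrane did likewise, with Cacna1c, the cardiac L-type calcium channel, at least 4.87 ± 0.14 higher in heart and Cacna1s, its skeletal counterpart and the voltage sensor, at least 6.25 ± 0.17 higher in muscle.

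Potassium channels of repolarisation were on the heart side. Kcnip2, a subunit of the transient outward current, read 9.62, 9.52 and 9.80 in heart and 3.26, 3.49 and 3.35 in muscle (at least 6.28 ± 0.12). Kcnj5, a channel opened by acetylcholine in the heart, differed by at least 4.29 ± 0.09, Kcnh2 and Kcnq1, which carry the delayed rectifier currents, by at least 3.81 ± 0.19 and 3.01 ± 0.24, and Slc8a1, the sodium-calcium exchanger, by 2.53 ± 0.21. On the muscle side stood Stac3 and Cacng1, partners of the skeletal calcium channel, at least 6.36 ± 0.13 and 6.89 ± 0.14 higher in muscle, and Clcn1, the chloride channel that steadies the skeletal fibre membrane, at least 2.87 ± 0.13. Cacnb1, the skeletal channel's beta subunit, was at least 4.91 ± 0.24 higher in muscle on a probe set that can match related transcripts. It differed by -0.38 (adjusted p = 0.108) on a probe set without that mark and by 0.06 on another. Both of these had means under 4 in both tissues, near the floor, so they cannot gauge the difference. Proteins of the calcium store common to both tissues differed little, such as Srl (sarcalumenin, -0.39 ± 0.10) and Hrc, which binds calcium there (0.44 ± 0.14, adjusted p = 0.038). Hrc was not called with median centring or without heart replicate 1 or 2 or muscle replicate 1 or 3 (adjusted p between 0.0965 and 0.126).

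Intercalated disc genes were higher in heart for 12 of 15, with a median of 2.67. Dsp read 11.40, 11.31 and 11.27 in heart and 2.2, 2.50 and 2.29 in muscle, and differed by at least 9.0 ± 0.11. Cdh2, the N-cadherin of the disc, read 9.85, 9.76 and 9.83 in heart and 2.80, 2.72 and 2.50 in muscle, and Dsg2, a desmosomal cadherin, differed by at least 5.80 ± 0.11. Gja1, the gap junction protein connexin 43, read 11.81, 11.73 and 11.64 in heart and 8.25, 8.0 and 6.65 in muscle (4.09 ± 0.37), with no overlap although it was well detected in both. The member that ran against the list was Nrap, a protein of myofibril assembly, at -1.24 ± 0.21. Pkp2, plakophilin 2, differed by 4.65 ± 0.20 on the chosen probe set and by 0.16 (adjusted p = 0.439) on the probe set less open to related transcripts. That other probe set was near the floor in both tissues (2.84 in heart and 2.68 in muscle), so it cannot gauge the difference. Genes of the dystrophin complex, which anchors every striated fibre to its surroundings, went both ways, with 4 of 13 higher in heart, 5 higher in muscle, a median of 0.06 and a range of -5.23 to 1.36. Without heart replicate 2 the counts were 2 in heart and 3 in muscle. Of the 13 genes 10 averaged 6 or more in either tissue. Among all genes at that level 33.5% were higher in heart and 30.9% in muscle, so the counts lie near those shares. Sgcb, a sarcoglycan called at 0.42 in favour of heart, differed by 0.17 (adjusted p = 0.233 in limma) and -0.26 (0.149) on other probe sets. Dag1, dystroglycan, differed by 0.38 ± 0.09 (not called with median centring, adjusted p = 0.0829, or without heart replicate 2, 0.0593) and Dmd, dystrophin, by -0.66 ± 0.11, while Capn3, a muscle calpain, stood out at -5.23 ± 0.21.

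Transcription factors known for each tissue were split between them. Of 17 cardiac factors 15 were higher in heart and 0 in muscle (median 3.13), and of 17 skeletal factors 12 were higher in muscle and 0 in heart (median -3.67). Gata6 read 8.58, 8.43 and 8.24 in heart and 2.69, 2.58 and 2.81 in muscle (at least 5.73 ± 0.12, adjusted p = 4.5e-08). Tbx20, a T-box factor of the heart, differed by at least 5.35 ± 0.11, Nkx2-5, the cardiac homeobox factor, by at least 3.90 ± 0.17, and Gata4 by at least 3.77 ± 0.14. Myf6, the MyoD-family factor of mature fibres, read 2.49, 2.50 and 2.63 in heart and 9.13, 9.51 and 9.84 in muscle (at least 6.95 ± 0.18 higher in muscle). Myod1 itself differed by at least 3.75 ± 0.17 and Tbx15, a T-box factor of fast fibres, by at least 6.46 ± 0.09. Sox6, which represses slow genes in fast fibres, read 5.71, 5.61 and 5.54 in heart and 9.23, 9.21 and 9.46 in muscle (-3.67 ± 0.11). Early factors such as Pax3, Pax7, Hand1 and Isl1 were near the floor in both tissues and were not called.

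General muscle activators were called about as often as genes in general. Of 9 myocyte enhancer and serum response genes 6 were not called, while 35.5% of all genes tested were called. Mef2a read 10.04, 9.99 and 9.88 in heart and 9.99, 9.92 and 9.91 in muscle (0.03 ± 0.10), and Srf and Mef2d were likewise not called, at 0.30 ± 0.19 and -0.29 ± 0.12. Tead4 was called higher in muscle, but not without any one of the heart arrays (adjusted p between 0.0845 and 0.124). A second heart call was made without heart replicate 1 or muscle replicate 2. The other two calls were large. Myocd, myocardin, the partner of serum response factor in heart and smooth muscle, was at least 4.66 ± 0.17 higher in heart, and Mef2c, though known from heart development, read 8.16, 8.35 and 8.40 in heart and 11.51, 11.36 and 11.13 in muscle (-3.03 ± 0.13). Homeobox genes that mark position along the body and limb were on the muscle side, 11 of 13 with 0 on the heart side. Hoxc10 was the largest, at 2.25, 2.53 and 2.38 in heart and 8.49, 8.29 and 8.46 in muscle (at least 6.03 ± 0.11 higher in muscle). Hoxd8 and Hoxd9 were called too, with muscle replicate 2 lowest for both, at 6.5 and 4.63 against 8.38 and 6.70 on replicate 1 and 8.71 and 6.56 on replicate 3.

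Genes of the neuromuscular junction were mixed, with 2 of 13 higher in heart and 6 higher in muscle. The heart count was 1 without heart replicate 2 or 3 or muscle replicate 1 or 3, when Colq, the collagen tail of acetylcholinesterase, was no longer called (adjusted p between 0.0692 and 0.0865). The acetylcholine receptor subunits Chrna1 and Chrnb1 were at least 3.39 ± 0.17 and 3.61 ± 0.24 higher in muscle, and Musk, the receptor kinase that organises the junction, at least 1.98 ± 0.36. Agrn, agrin, which is made by the nerve but also by many other cells, read 7.99, 8.20 and 7.16 in heart and 5.66, 5.95 and 5.34 in muscle (2.13 ± 0.28). Chrng and Chrnd, the fetal gamma and the delta subunit, were near the floor in both tissues. Fewer cells of a type and less RNA per cell cannot be told apart in whole tissue, for these genes as for all below.

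Natriuretic peptide genes were high in heart and near the floor in muscle. Nppb, which encodes the natriuretic peptide BNP, read 9.62, 11.64 and 11.74 in heart and 2.58, 2.58 and 2.55 in muscle, a difference of at least 8.43 ± 0.51 (adjusted p = 1.1e-05). Nppa, which encodes the atrial natriuretic peptide, read 9.64, 10.79 and 11.06 in heart and 2.83, 3.40 and 2.96 in muscle (at least 7.43 ± 0.35). Heart replicate 1 was the lowest heart array for both and still far above all muscle arrays, and both windows printed above carry 2 GATAA matches. Corin, the protease that activates the atrial peptide, differed by at least 6.19 ± 0.21, while the receptors Npr1, Npr2 and Npr3 were not called. Of 8 genes of cardiac hormone reception and cyclic AMP 6 were higher in heart, among them Agtr1a, the angiotensin receptor (3.46 ± 0.28), and Adcy5 and Adcy6, the cardiac adenylyl cyclases (at least 2.67 ± 0.24 for Adcy5, and 2.64 ± 0.11 for Adcy6). Of 9 genes of muscle-derived signals and muscle mass, Fndc5, the irisin precursor, was 2.49 ± 0.16 higher in heart, and Fbxo32, the ubiquitin ligase atrogin-1, was 2.70 ± 0.34 higher in muscle. Another Fbxo32 probe set, at 8.69 in heart and 9.27 in muscle, differed by -0.58 (adjusted p = 0.244 in limma). A further one differed by -2.53 (adjusted p = 0.000708), so the size depends on the probe set.

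Genes of fatty acid uptake and oxidation gave smaller differences than the sarcomere genes, mostly in one direction. They were higher in heart for 23 of 25, with a median of 1.34 and a range of -1.43 to 2.97. Acaa2, the last enzyme of mitochondrial beta-oxidation, read 12.09, 11.91 and 11.58 in heart and 9.53, 9.77 and 9.23 in muscle (2.35 ± 0.18, adjusted p = 4e-05). Cpt1b, the muscle carnitine palmitoyltransferase that gates entry of fatty acids, read 10.45, 10.43 and 10.43 in heart and 9.10, 9.19 and 9.0 in muscle (1.34 ± 0.10). On all arrays the heart values of both lay above the muscle values. Cpt1a, the form known from liver, differed by 2.19 ± 0.24, Cd36, a fatty acid carrier, by 1.77 ± 0.15, and Lpl, lipoprotein lipase, by 1.48 ± 0.14. The member higher in muscle was Ucp3, an uncoupling protein, at -1.43 ± 0.20, and Mlycd was not called (0.47 ± 0.19).

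Ketone and branched-chain amino acid breakdown followed, with 5 of 7 higher in heart and 1 in muscle. Oxct1, the enzyme that lets tissues burn ketone bodies, read 11.63, 11.66 and 11.85 in heart and 10.51, 10.64 and 10.44 in muscle (1.19 ± 0.11). Bckdha, Bckdhb and Dbt, subunits of the branched-chain keto acid dehydrogenase, differed by 1.56 ± 0.15, 1.2 ± 0.14 and 0.96 ± 0.11, and Bckdk, the kinase that switches this enzyme off, by -0.65 ± 0.12. The subunits and their inhibitory kinase thus lay on opposite sides. In a joint list of pyruvate dehydrogenase, its regulators and the citric acid cycle, 15 of 26 genes were higher in heart and 1 in muscle, with a median of 0.40. Idh2, mitochondrial isocitrate dehydrogenase, read 12.22, 12.27 and 12.12 in heart and 9.84, 8.99 and 9.04 in muscle (2.91 ± 0.22), whereas Cs, citrate synthase, and Idh3a were not called at 0.25 ± 0.11 and -0.09 ± 0.12. Pdp1, a phosphatase that activates pyruvate dehydrogenase, was the member higher in muscle (-1.10 ± 0.18).

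Respiratory chain subunits were shifted together by a small amount. For complex I the heart mean was above the muscle mean for 32 of 32 genes and the arrays did not overlap for 29, yet 22 were called and 0 of the differences reached 1, with a median of 0.47. Ndufa11, the largest, read 11.77, 11.86 and 11.75 in heart and 10.79, 11.15 and 10.85 in muscle (0.86 ± 0.12), and Ndufb4, the smallest, differed by 0.05 ± 0.09. For complexes III to V, 25 of 37 were higher in heart and 0 in muscle, with a median of 0.38. Cox6a1 and Cox8a, forms of cytochrome c oxidase subunits that other tissues use, differed by 1.56 ± 0.13 and 1.84 ± 0.14, while their muscle-type partners Cox6a2 and Cox8b differed by 0.57 ± 0.10 and 0.12 ± 0.09. A shift of this size is sensitive to scaling and to single arrays. With arrays centred on their medians the counts were 17 for complex I and 14 for complexes III to V, with medians of 0.34 and 0.25, and the count for complexes III to V was 16, 16 and 15 without heart replicate 1, 2 and 3 and 16 with a second quantile normalization. In knock-out mice 12 and 13 were called. The direction held in each case, with 0 called higher in muscle in wild-type mice.

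Glycolysis and glycogen genes ran the opposite way. Of 21 genes of glycolysis and lactate 12 were higher in muscle and 5 in heart (median -0.98). Ldha, the lactate dehydrogenase subunit of glycolytic tissue, read 11.32, 11.30 and 11.28 in heart and 12.85, 12.92 and 13.12 in muscle (-1.66 ± 0.11), and Ldhb, the subunit of oxidative tissue, read 12.63, 12.49 and 12.53 in heart and 10.24, 9.64 and 9.49 in muscle (2.76 ± 0.19). Forms of single steps were split in the same manner. Pfkm, muscle phosphofructokinase, differed by -1.40 ± 0.10, whereas Pfkl and Pfkp, the liver and platelet forms, were higher in heart by at least 3.71 ± 0.16 and by 2.81 ± 0.23. Slc16a1, which takes up lactate, was 1.68 ± 0.26 higher in heart, and Slc16a3, which exports it, was at least 3.44 ± 0.14 higher in muscle. Hk2 and Slc2a4, the insulin-responsive hexokinase and glucose transporter, were not called (-0.13 ± 0.11 and -0.24 ± 0.10).

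Glycogen metabolism was the most one-sided of the fuel lists in muscle, with 10 of 12 higher there and a median of -1.48. Phkg1 and Phka1, the muscle subunits of phosphorylase kinase, read 5.16, 4.47 and 4.76 and 6.83, 6.31 and 6.62 in heart, and 9.11, 9.28 and 9.19 and 10.79, 10.54 and 10.85 in muscle (-4.39 ± 0.17 and -4.14 ± 0.16). The muscle glycogen phosphorylase Pygm was 2.03 ± 0.13 higher in muscle. The exception was Pygb, the phosphorylase form named for brain, which read 10.91, 10.71 and 10.45 in heart and 3.81, 3.96 and 4.63 in muscle, a difference of 6.55 ± 0.23 (adjusted p = 6.3e-07). In the phosphocreatine and purine cycle list 3 of 10 were higher in heart and 4 in muscle. Ckm, muscle creatine kinase, was 1.99 ± 0.09 higher in muscle, its mitochondrial partner Ckmt2 was 0.42 ± 0.10 higher in heart, and myoglobin, Mb, differed by 0.50 ± 0.14 (adjusted p = 0.024). Ckmt2 was not called with all 30 arrays in the fit, median centring or a second quantile normalization (adjusted p = 0.0564, 0.0597 and 0.0735). Mb was not called with median centring or without heart replicate 1 or 2 or muscle replicate 3 (adjusted p between 0.0556 and 0.0851). Among 10 regulators of mitochondrial genes 5 were higher in heart and 2 in muscle. The heart count was 3 without heart replicate 1 or 3, and the muscle count was 1 without any one array other than muscle replicate 2. Ppara, a receptor for fatty acids, was 2.13 ± 0.25 and Esrrb at least 2.27 ± 0.18 higher in heart, and Tfb2m, a mitochondrial transcription factor, was 0.36 ± 0.11 higher in muscle (adjusted p = 0.036). Tfb2m was not called with the replicate number as a block (adjusted p = 0.07) or without any one array other than muscle replicate 2 (adjusted p between 0.0686 and 0.113).

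**Figure D4:**
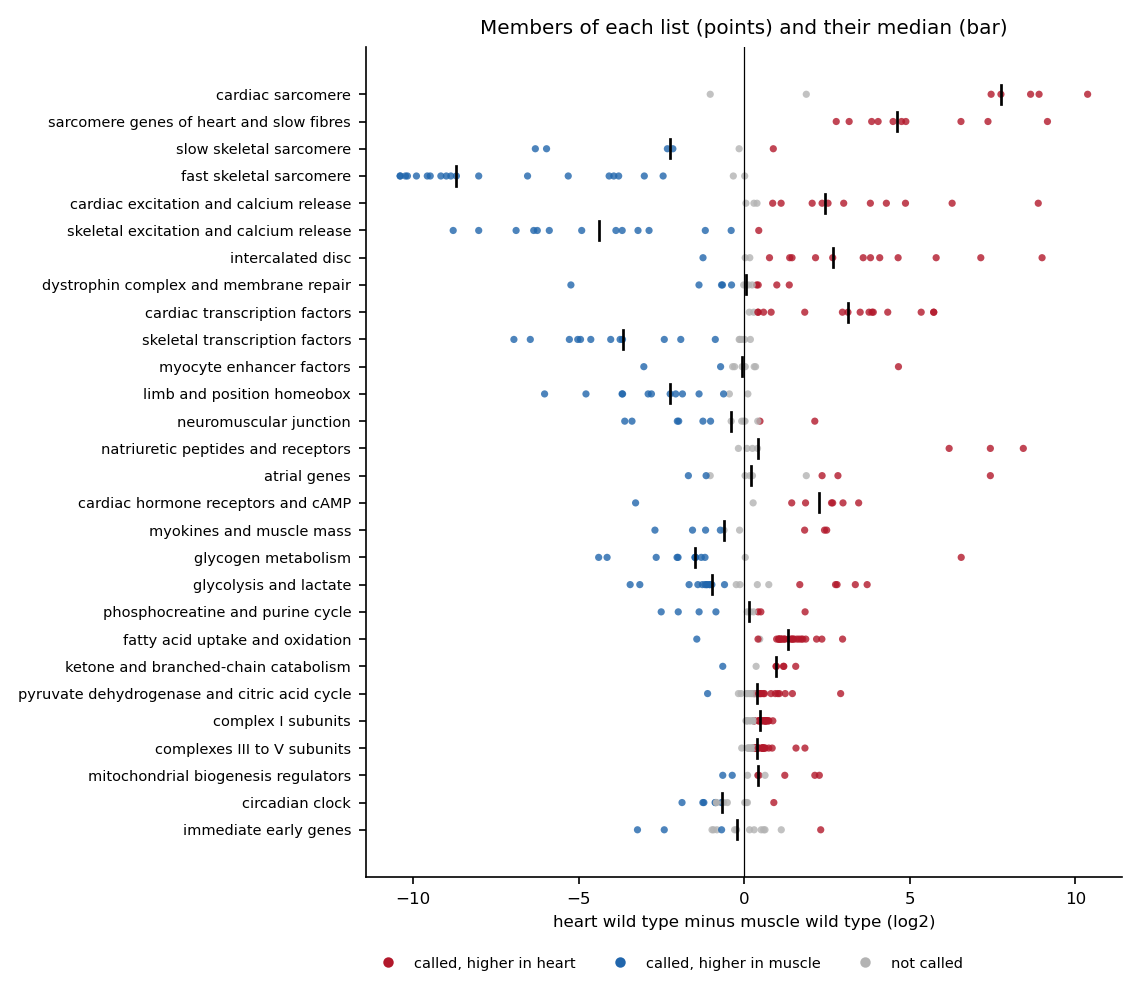
Heart minus muscle on the log2 scale for the measured members of 28 gene lists (points), with the median of each list as a black bar. Red and blue points passed an adjusted p below 0.05 in favour of heart and of muscle, and grey points did not. The sarcomere and transcription factor lists reach past 5 in size, while complex I lies between 0.05 and 0.86.

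Clock genes and genes of rapid response varied with the replicate number. In both tissues replicate 3 was the lowest array for 8 of 15 clock genes and 12 of 15 immediate early genes. The same count was not made over all genes, so it is not known whether these lists stand out. Over genes that averaged 6 or more in either tissue, deviations of heart and muscle replicate 3 correlated at 0.22. Per1, a core clock gene, read 5.98, 6.27 and 4.37 in heart and 5.73, 6.05 and 4.54 in muscle, so that the arrays paired by number across tissues and the tissue difference was 0.10 ± 0.55. Of the clock list 6 genes were higher in muscle and 1, Npas2, in heart, a count of 10 in muscle with median centring or without muscle replicate 3 and of 4 without heart replicate 2. Npas2 was not called without heart replicate 2 or 3, with all 30 arrays or with the mean of all probe sets (adjusted p between 0.0532 and 0.11). Bhlhe40, a repressor of the clock, was 1.88 ± 0.16 higher in muscle. Of the immediate early list 3 were higher in muscle and 1 in heart. Without muscle replicate 2 there were 5 in heart, and in muscle there were 5 without muscle replicate 3, 2 without heart replicate 1 and 1 without heart replicate 3. Nr4a1, an orphan nuclear receptor, read 7.27, 6.56 and 6.17 in heart and 10.19, 10.21 and 9.28 in muscle (-3.22 ± 0.33).

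Markers of endothelial cells, macrophages, red cells and epicardium were mostly higher in heart, and those of other cells were mixed or not called. Of 11 endothelial markers 10 were higher in heart and 0 in muscle, with a median of 1.10, and their summed level lay between 11.3 and 11.4 on the heart arrays and between 9.89 and 10.6 on the muscle arrays on the log2 scale. Kdr, the receptor for vascular endothelial growth factor, read 8.91, 9.21 and 9.16 in heart and 7.06, 7.67 and 7.11 in muscle (1.81 ± 0.18). Of 9 macrophage markers 8 were higher in heart, with C1qa, a complement component, at 7.81, 7.46 and 7.69 in heart and 4.09, 5.15 and 5.16 in muscle (2.85 ± 0.28). Fibroblast markers were higher in heart for 4 of 9, but for 2 without any one of the heart arrays, with Tcf21, a factor of cardiac fibroblasts, the largest at 2.75 ± 0.17 or more, and the haemoglobin gene Hba-a1 was 1.72 ± 0.15 higher in heart. Epicardial markers were low in both tissues, yet 5 of 6 were called higher in heart (3 without heart replicate 1), led by Upk3b (at least 2.92 ± 0.46). Their part in the other differences was not tested.

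All 3 measured markers of white adipocytes were higher in muscle, and their summed level lay between 4.77 and 4.80 in heart and between 8.30 and 10.2 in muscle. Retn, 1 of the 3, was not called with a trended robust prior or without any one of the heart arrays (adjusted p between 0.0662 and 0.104). Adipoq, the adipocyte hormone adiponectin, read 3.29, 2.87 and 2.71 in heart and 8.05, 8.67 and 9.63 in muscle (at least 5.83 ± 0.37 higher in muscle), and Car3, carbonic anhydrase 3, which both fat and slow fibres make, read 5.0, 4.42 and 3.13 in heart and 12.65, 12.81 and 12.58 in muscle (-8.50 ± 0.41). Cidea, a lipid droplet protein known from brown fat, went the other way at 8.0, 8.48 and 8.40 in heart and 2.93, 2.96 and 3.76 in muscle, with Ucp1, the defining gene of brown fat, near the floor on all 6 arrays. In knock-out mice 0 of the 3 white adipocyte markers were called in limma and their median was -0.13, against -2.61 in wild-type mice. Tendon genes varied inside muscle, where Fmod, fibromodulin, read 5.93, 7.14 and 2.97, and of 8 such genes Thbs4 was called (-4.16 ± 0.35). The count was 2 without muscle replicate 1 or 2 and 4 without muscle replicate 3. The myelin gene Mbp was at least 2.85 ± 0.40 higher in muscle. Of 4 markers of satellite cells 2 were higher in muscle, and of 6 markers of smooth muscle and 5 of keratinocytes 1 each was higher in heart, or 2 each without muscle replicate 2. Markers of lymphocytes and lung epithelium had 0 of 5 and 0 of 3 called.

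Several arrays stood apart in ways the tissue label does not give. On muscle replicate 1, 155 genes read at least 1 above the other muscle arrays where those agreed within 0.5, against 7 to 63 genes on the other 5 arrays, and 130 of the 155 (83.9%) had a wild-type testis mean of at least 8, a level that 14.3% of all genes had. The sperm list gave 1 of 20 genes called, Fscn3 in muscle (at least 0.43 ± 0.09 higher there), with and without that array, and its median difference was -0.71 with it and -0.003 without it. Heart replicate 1 read 7.42 for Myl7, the atrial light chain, against 3.81 and 2.95 on the other heart arrays, and 7.75 for Myl4, the other atrial light chain, against 4.49 and 4.36. Of 10 atrial genes 3 were called higher in heart and 2 in muscle. The muscle count was 1 without heart replicate 2 or 3 or muscle replicate 1 or 2. The difference from muscle was not called for either light chain (1.88 ± 0.99 and -1.03 ± 0.81). The same array was the lowest heart array for Nppb, Nppa and Acta1, and with it and muscle replicate 1 both left out 4684 genes were called, 4500 of them shared with the full comparison. In all, 17 genes had an SD above 1 among the heart arrays and 140 among the muscle arrays.

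**Figure D5:**
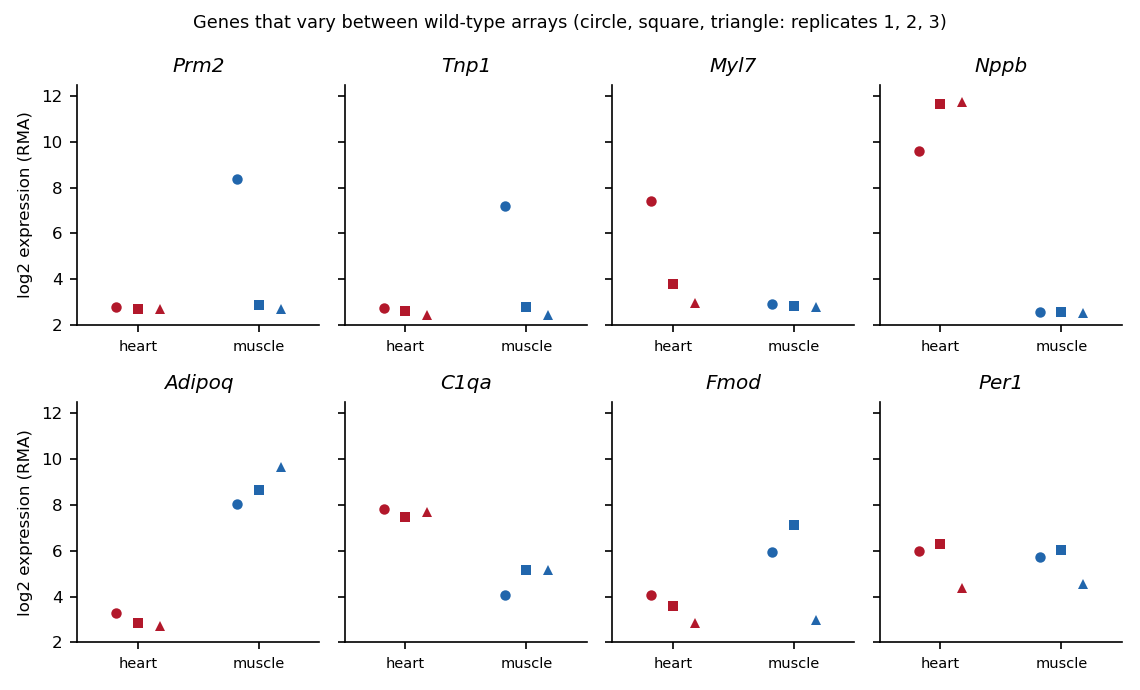
Log2 expression of 8 genes on the 3 wild-type heart arrays (red) and the 3 wild-type muscle arrays (blue), with replicates 1, 2 and 3 as circle, square and triangle. Muscle replicate 1 is alone in Prm2 and Tnp1, heart replicate 1 is apart in Myl7 and Nppb, and replicate 3 is low in both tissues for Per1.

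The genes of this contrast were also set beside brain, liver and testis of wild-type mice. Of the 1431 genes higher in heart by at least 1, 750 (52.4%) were highest in heart of all 5 tissues, and of the 1075 higher in muscle 697 (64.8%) were highest in muscle. A mean of at least 6 here with a mean under 4 in each of the other 4 tissues was seen for 31 heart genes, among them Nppb, Nppa, Myzap, Tbx20 and Nkx2-5, and for 46 muscle genes, among them Tnnc2, Myh4, Myf6, Stac3 and Hoxc10. Others were high elsewhere too, and 352 of the 1431 heart genes read higher in liver, 349 in brain and 244 in testis. Dsg2 had a wild-type mean of 9.29 in liver, Ndrg4 of 12.7 in brain and Pvalb of 11.2 in brain.

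The tissue difference was measured again in knock-out mice, on arrays that share no sample with the wild-type ones. There 5820 genes (34% of all tested) were called, 3252 higher in heart (19%) and 2568 higher in muscle (15%), and at a size of at least 1 there were 1546 (9.04%) and 1054 (6.16%). Of those called at that size in wild-type mice, 1143 of 1431 heart genes and 854 of 1075 muscle genes were also called in knock-out mice in the same direction, which is 73.9% of the heart genes and 81% of the muscle genes called there. The sign was the same for 1426 and 1057, and 2 and 2 were called the opposite way. The paired forms split as before, with 14 of 15 heart forms higher in heart and 15 of 15 skeletal forms higher in muscle. Heart replicates 2 and 3 of the knock-out mice read 12.63 and 12.79 for Myl7 and 8.03 and 9.28 for Adipoq, against 3.59 and 2.57 on knock-out heart replicate 1, so the knock-out hearts were themselves uneven.

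Few genes differed between genotypes in their tissue difference itself. The test on all 12 arrays called 58 genes (0.339%). The signed difference, heart minus muscle, was larger in knock-out mice for 20 (0.117%) and smaller for 38 (0.222%). At a size of at least 1 these counts were 16 (0.0936%) and 31 (0.181%). Asns, asparagine synthetase, read 7.46, 7.97 and 8.72 in knock-out heart and 3.54, 4.34 and 3.68 in wild-type heart, and 3.17, 3.6 and 3.90 in knock-out muscle and 4.12, 3.68 and 3.79 in wild-type muscle. Its tissue difference was 4.5 ± 0.43 larger in knock-out mice (adjusted p = 0.0018), as only the knock-out heart arrays were high. Ifi27, an interferon-induced gene, gave 1.99 in knock-out mice and -0.34 in wild-type mice. Dbt and Oxct1 had a lower heart minus muscle difference in knock-out mice, with Dbt at -0.28 in knock-out mice and 0.96 in wild-type mice (adjusted p = 0.00896) and Oxct1 at 0.45 in knock-out mice and 1.19 in wild-type mice (adjusted p = 0.0423).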

How the data were processed

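Arrays were grouped by their labels, and 1 probe set per gene was used, the brightest by its mean over all 30 arrays. The deposited table held log2 expression values per probe set, made by the authors with RMA in R 2.14.0 per the submitters' processing notes, and whether all arrays were processed together is not given in the sources used here. No further normalization was applied. Of 45141 probe sets 28898 had 1 gene symbol, 551 had several and 15692 had none, which gave 17097 genes, 7180 of them with several probe sets. Symbols came from the platform's annotation, and 16937 genes were matched by Entrez identifier to RefSeq on GRCm38.p6, which also gave the promoter windows. Some genes of the lists are not analysed here, and counts are of the members measured.

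The 3 heart and 3 muscle wild-type arrays alone entered the fit, made in R 4.3.3 by limma 3.58.1 (lmFit and eBayes, 4 residual degrees of freedom), so that the spread is that of the groups compared. Tests were two-sided, with Benjamini-Hochberg adjustment over all genes. The knock-out arrays were fitted in the same way, and the change of the tissue difference was an interaction on 12 arrays. The fit was tested on simulated data.

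The arrays, the genes and the 45 lists of pathways and cell markers were chosen with earlier results of these data known. Named genes were the 15 largest differences in each direction among called genes with separate arrays and a mean of at least 6, up to 4 called members of each list in each direction, all paired forms, Clpp and the 10 genes with the smallest p for the interaction. Clone and predicted names, 27 in heart and 50 in muscle, were left out of the first of these. Further list members were named after their values were seen, as a list's exceptions or as more examples of it. Of the 204 genes named by the rules, 92 had more than 1 probe set, and for Jph2 and Tpm3 another probe set had the opposite sign at p below 0.05. Checks of single genes by probe set and by processing covered these 204 and not the further members.

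Replicate numbers paired the wild-type arrays by the check used, since deviations of same-numbered heart and muscle arrays correlated at 0.231, 0.157 and 0.22 and those of other pairs at -0.2 to -0.03. The labels do not say what a shared number means, and knock-out arrays of the same number gave 0.18, -0.01 and 0.246. Alternatives were the replicate block, other sets of arrays in the fit, a trended robust prior, array weights, median centring, a second quantile normalization, removal of dim genes, other choices of probe set, a test against a difference of 1, and each array left out. Leaving out replicate 1 of both tissues was added after seeing the data.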

Additional observations from a re-analysis of the deposited data

Results flagged for a closer look

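These genes stood out because the tissue difference itself differed between genotypes, by the interaction test in limma on 12 arrays. Values are the knock-out difference minus the wild-type difference on the log2 scale, with heart minus muscle in knock-out and then in wild-type mice. The heart minus muscle difference was higher in knock-out mice for Asns (4.5, from differences of 4.5 and -0.01), Ifi27 (2.33, from 1.99 and -0.34), the interferon-induced protease Usp18 (2.19, from 2.62 and 0.44) and the survival factor Bcl2 (1.91, from 1.08 and -0.83). In wild-type mice Ifi27 and Bcl2 were lower in heart than in muscle, and Asns was about equal. For Ifi27 the adjusted p was 8.1e-06, and for Asns and Bcl2 0.00181. For Bcl2 it was the muscle mean that moved, at 4.37 in knock-out and 6.28 in wild-type muscle, against 5.46 in knock-out and 5.45 in wild-type heart.

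The heart minus muscle difference was lower in knock-out mice for Pla2g5 (-2.52, from 1.39 and 3.91), the sarcomere light chain Myl3 (-2.0, from 1.85 and 3.85), Selenbp1 (-1.81, from 1.44 and 3.25), Krt222 (-1.62, from 1.04 and 2.66), Dbt (-1.24, from -0.28 and 0.96), Fah (-1.18, from 1.85 and 3.03) and the ketone enzyme Oxct1 (-0.73, from 0.45 and 1.19). It was also lower for Ppp1r1a (-1.72, from -5.0 and -3.28), with muscle above heart in both genotypes, and for Arpp21 (-1.51, from -1.78 and -0.27). For Arpp21 the wild-type difference was not called, with means near the floor (3.08 in heart and 3.35 in muscle). Adjusted p-values of these 9 genes lay between 0.00896 and 0.0496. For Selenbp1 the heart means were 9.29 in knock-out and 9.41 in wild-type mice, and the muscle means 7.84 and 6.16.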

How the results depend on the processing

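Of the 204 named genes, 203 kept their call with the replicate number as a block, which called 6085 genes, and Tfb2m (adjusted p = 0.07) did not. Leaving out each array gave 5019 to 5841 genes called in wild-type mice, 2844 to 3242 higher in heart and 2175 to 2599 in muscle, and 1374 to 1524 and 1032 to 1139 at a size of at least 1. Only genes with a mean of at least 6 in either tissue gave 2229 higher in heart in wild-type and 2117 in knock-out mice. A limma test against a difference of 1 called 612 and 478 genes in wild-type mice and 609 and 533 in knock-out mice. Median centring called 4187 genes higher in knock-out muscle, and in wild-type mice 6228 genes, 2662 of them higher in heart. The mean of all probe sets turned Tpm3 to -1.18.

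The interaction was the least stable count. Leaving out an array gave 16 (without muscle knock-out replicate 1) to 401 genes (without heart knock-out replicate 1), 6 to 241 larger and 10 to 160 smaller, and 6 to 187 and 10 to 84 at a size of at least 1. The count moved by more than 1.5 times for each array except muscle wild-type replicates 1 and 3. All 30 arrays in the fit gave 146 genes, 65 larger and 81 smaller, and 52 and 59 at that size. Array weights gave 99, 39 and 60, and 31 and 49, and a trended robust prior gave 25 larger at that size. The causes were not tested. Calls near the threshold, such as Lum, Dcn, Mb, Dkk3, Retn, Hrc and Tnni1, were lost under several settings, and Myl2 under the trended prior (adjusted p = 0.0599).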

Other observations

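Some genes outside the lists were among the largest differences. Fhl2, a LIM-domain protein of the heart's sarcomere, read 11.80, 11.96 and 12.08 in heart and 3.99, 3.18 and 3.53 in muscle (at least 8.38 ± 0.20). Myzap, a protein of the intercalated disc, differed by at least 7.28 ± 0.13 and Ndrg4 by at least 7.26 ± 0.19. Tspan8, a tetraspanin of the cell surface, read 2.70, 2.83 and 2.71 in heart and 9.92, 9.72 and 10.45 in muscle. All muscle arrays lay above all heart arrays, as the rule that named it required. Tspan8 also had means under 4 in the other 3 wild-type tissues.

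Single genes varied inside a tissue without a label to account for it. Among muscle arrays Mss51 read 11.84, 9.61 and 8.10, Ankrd1, a stress-responsive titin-binding protein, 4.44, 8.56 and 5.85, and Fasn, fatty acid synthase, 5.13, 5.85 and 8.16. Among heart arrays Tfrc, the transferrin receptor, read 7.18, 9.22 and 9.48 and Ppbp, a platelet chemokine, 3.31, 4.94 and 6.84. These are values of single arrays, and nothing was tested on them.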
